A study of Homo sapiens with 16 samples.

Results

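The data described here are 4 small RNA libraries of extracellular vesicles (EVs) shed by MDA-MB-231, out of 16 libraries in the series. In 2 of them the EVs were isolated with next-gen ATPS and in 2 with ultracentrifugation (UC), and the members were chosen by their column labels alone. MDA-MB-231 is an established human triple-negative breast cancer line of mesenchymal character. All 4 libraries share one wild-type, untreated line. The labels set the 2 groups apart only by how the EVs were taken from the conditioned medium (CM). Whether both methods started from the same CM is not stated. The UC columns carry the label VC, taken here to mean UC, the remaining method of the study. The labels give 5% FBS in the growth medium, the paper's methods differ on this for MDA-MB-231, and the donor cells were starved of serum before CM was collected. The other libraries are from PC3, a prostate cancer line, from EVs isolated with a column kit, and from the donor cells. No source says whether both libraries of a group were grown separately, so the spread behind the p-values may be technical.

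Next-gen ATPS, an aqueous two-phase system, mixes polyethylene glycol and dextran with CM. The solution separates into layers, EVs gather in the dextran-rich layer, and dextranase then digests the dextran. From cell RNA added to CM of PC3 cells, the paper proposes that ATPS takes up cell-free RNA as well. The added RNA appeared there as fragments larger than the EV RNA. RNase on CM without added RNA is reported to have left the smaller EV RNA unchanged. UC pellets EVs by centrifugal force together with other particles of similar sedimentation. RNA was then extracted with TRIzol in both, from the digested liquid after next-gen ATPS and from the pellet after UC. A miRNA is a short RNA cut from a hairpin precursor, and its seed, bases 2 to 8, pairs with target mRNAs. The 2 arms of a hairpin, 5p and 3p, can each give a mature miRNA. A snoRNA guides chemical modification or cleavage of ribosomal RNA (rRNA) in the nucleolus, and C/D box members direct methylation while H/ACA box members direct pseudouridylation. A circRNA is a closed ring of RNA, most often made by back-splicing of exons. The comparison asks whether the isolation method changes which of these RNAs are seen in EVs of one cell line.

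The mature miRNAs on which the comparison turns are printed from RefSeq for GRCh38.p14, 5′ to 3′, with the seed in capitals. The first pair are the arms of one hairpin, whose proportions differed between the methods. The next pair have exact copies in rRNA precursor sequence. hsa-miR-1291 had the largest log2 difference of the class. The rest are abundant mature species and species with lower levels in next-gen ATPS EVs.
hsa-miR-27a-5p: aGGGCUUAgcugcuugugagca
hsa-miR-27a-3p: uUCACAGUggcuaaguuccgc
hsa-miR-663b: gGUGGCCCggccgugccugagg
hsa-miR-4488: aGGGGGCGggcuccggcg
hsa-miR-1291: uGGCCCUGacugaagaccagcagu
hsa-miR-222-3p: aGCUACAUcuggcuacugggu
hsa-miR-30a-5p: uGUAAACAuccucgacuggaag
hsa-miR-21-5p: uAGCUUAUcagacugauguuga
hsa-miR-182-5p: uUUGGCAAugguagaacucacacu
hsa-miR-181b-5p: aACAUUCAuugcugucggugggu
hsa-miR-92a-3p: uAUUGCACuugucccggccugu
The seed of hsa-miR-27a-5p was shared with no other tested species that had a sequence, and the same held for hsa-miR-663b, hsa-miR-4488 and hsa-miR-1291. The seed of hsa-miR-222-3p was shared with hsa-miR-221-3p, that of hsa-miR-27a-3p with hsa-miR-27b-3p, that of hsa-miR-181b-5p with hsa-miR-181a-5p and hsa-miR-181d-5p, and that of hsa-miR-92a-3p with hsa-miR-92b-3p and hsa-miR-25-3p. hsa-miR-27a-5p is at chr19:13836487-13836508 on the minus strand, within the noncoding host gene MIR23AHG. hsa-miR-663b is at chr2:132256970-132256991 on the minus strand, and its hairpin gene lies in an intron of ANKRD30BL.

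Values are named TPM in the tables, but each is a read count scaled to the total of its RNA class in that library (CPM), with no length term. They are therefore compared between libraries for one species, and a species that takes a larger share lowers the values of all others. The miRNA class held 8648 and 4855 reads in next-gen ATPS libraries, against 24730 and 26726 in UC libraries. A single miRNA read was thus worth at least 116 TPM with next-gen ATPS, against at most 40.4 TPM with UC. The snoRNA class held 151267 and 60912 reads with next-gen ATPS, against 400429 and 169221 with UC. The circRNA class summed to 399175187 and 374672214 with next-gen ATPS, against 245183283 and 241083557 with UC, over entries that can hold the same reads. Depth of miRNA and snoRNA therefore moved with the method, and its part in a result was not tested except where equal reads are given.

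The EV libraries carried miRNAs that MDA-MB-231 is known for and almost none of the epithelial ones. All 5 listed markers of the line had reads, led by hsa-miR-222-3p. Together they held 106383 and 143976 TPM in next-gen ATPS EVs, against 136636 and 186900 TPM in UC EVs. hsa-miR-125b-5p had only 1 and 0 reads with next-gen ATPS, against 9 and 7 with UC. The set does not single out the line, since PC3 EVs held hsa-miR-222-3p at 56694 and 30789 TPM with next-gen ATPS. The labels call the cells epithelial, but of 6 epithelial markers 3 were listed and only 2 had any read. These were hsa-miR-200a-3p and hsa-miR-200b-3p, with 1 read each in UC replicate 2, and the summed level was 0 and 0 TPM with next-gen ATPS, against 0 and 74.8 TPM with UC. A count of 0 allows up to 3 reads, which is 347 and 618 TPM in the next-gen ATPS libraries. Of 8 markers of blood cells, endothelium and liver, only hsa-miR-486-5p was in the table, at 231 and 412 TPM with next-gen ATPS, against 485 and 187 TPM with UC.

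Fewer miRNA species were seen after next-gen ATPS, but not once the read numbers were made equal. Next-gen ATPS EVs held 244 and 216 species above 0 TPM, against 337 and 357 in UC EVs. The groups did not overlap, and the means of 230 ± 19.8 and 347 ± 14.1 (SD, n = 2 each) differed by −117 species, with an exact two-sided permutation p of 0.33. With 2 libraries in each group 0.33 is the smallest p this test can give. Counting only species with at least 3 reads gave 110 and 96 with next-gen ATPS, against 184 and 176 with UC. At 4855 reads in every library, the expected numbers were 193 and 216 with next-gen ATPS, against 187 and 181.8 with UC. The difference was then 20.1 species in the other direction, which passes the pooled spread of 11.6 but not the exact test, again at p = 0.33. Of the species detected in at least 1 library of a group, 253 were shared, 51 were seen only with next-gen ATPS and 198 only with UC. The shared species were 83.2% of the next-gen ATPS species and 56.1% of the UC species. Shared species carried over 99% of the TPM in each library, from 99.1% to 99.6%. The most read species seen only with next-gen ATPS, hsa-mir-6721, had 3 reads, and the most read one seen only with UC, hsa-mir-3917, had 11 reads.

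**Figure D1:**
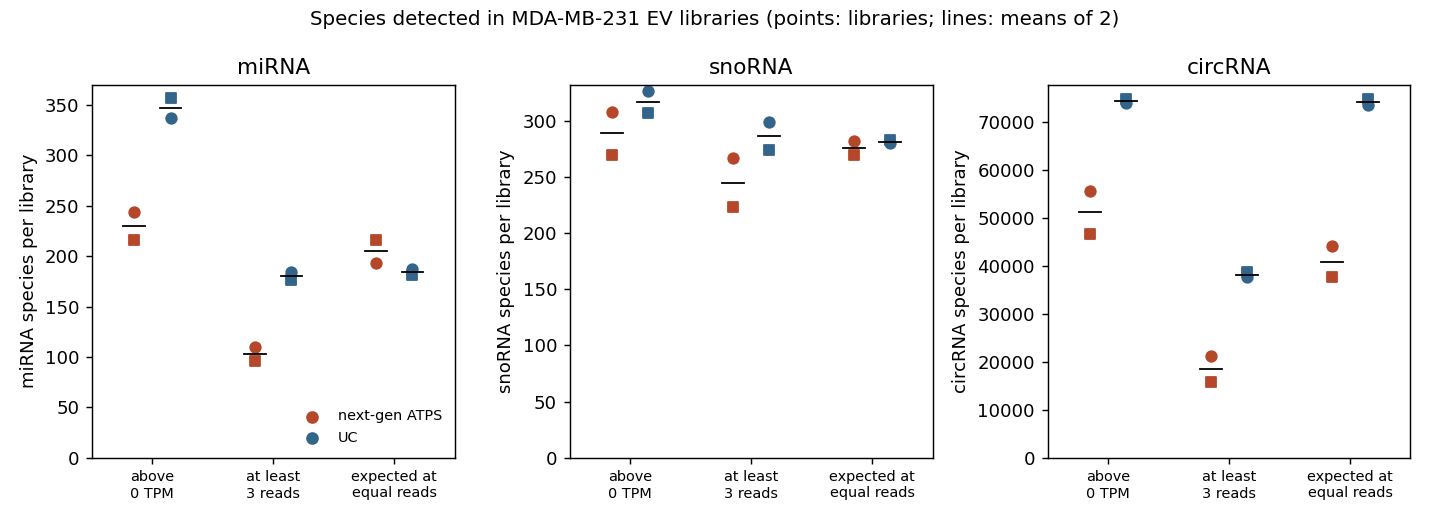
Species per library (vertical axis, number of species) in MDA-MB-231 EVs under 3 ways of counting (horizontal axis), with next-gen ATPS left of UC, circles for replicate 1, squares for replicate 2 and a line at the mean of 2. Both miRNA groups separate above 0 TPM, 244 and 216 against 337 and 357, and swap order at equal reads, while circRNA counts stay apart under all 3.

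Of 196 miRNA species tested, 2 were higher in next-gen ATPS EVs and 0 were lower, by limma with Benjamini-Hochberg adjustment at 0.05 (1.02% called higher, 0% called lower). The test used log2(TPM + 100), which understates changes of rare species. The filter was on mean TPM, where a next-gen ATPS read weighed more, so species read there passed with fewer reads. hsa-mir-103a-1, for one, counted as higher without overlap at 2 and 1 reads with next-gen ATPS, against 1 and 1 with UC. Counts of higher miRNA species are to be read with that limit. At an unadjusted p under 0.05 there were 18 higher and 3 lower, edgeR on the recovered reads called 6 higher (3.06%) and 2 lower (1.02%), and DESeq2 called 7 higher and 1 lower. Without next-gen ATPS replicate 1, limma called 6 higher. The median SE of a log2 difference was 0.85 over these species, so a species that did not pass the test may still differ. More vesicles that carry a species, more RNA per vesicle and RNA from outside vesicles cannot be told apart in these bulk samples.

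hsa-miR-27a-5p, the less studied arm of its hairpin, was the clearest difference. It had 4625 and 7003 TPM (40 and 34 reads) in next-gen ATPS EVs, against 687 and 449 TPM (17 and 12 reads) in UC EVs. Both next-gen ATPS values lay far above both UC values, although those libraries were the shallower ones. The log2 difference was 3.14 ± 0.36 (SE, limma adjusted p = 4.2e-05), and it stayed between 2.85 and 3.43 when any library of the line was left out. The other arm did not follow. hsa-miR-27a-3p, a regulator of lipid metabolism and the more abundant arm in most tissues, had 1156 and 5355 TPM with next-gen ATPS, against 1820 and 2395 TPM with UC, and the groups overlapped. Its log2 difference was 0.26 ± 0.67 (SE, limma adjusted p = 0.93).

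The balance of the 2 arms, a ratio within each library that no scaling can move, was chosen for a look after these values were seen. Reads of the 5p arm over reads of the 3p arm came to 4 and 1.31 with next-gen ATPS, against 0.378 and 0.188 with UC. The 3p arm had 10 and 26 reads with next-gen ATPS, against 45 and 64 with UC. The 5p arm was thus the more read arm in both next-gen ATPS libraries, though in replicate 2 only at 34 reads to 26. In both UC libraries the 5p arm was the less read one. PC3 EVs gave the same order, with ratios of 4.06 and 3.11 after next-gen ATPS, against 0.389 and 0.49 after UC. The neighbours in the cluster, which share the host transcript, showed no such step. hsa-miR-23a-3p had 6360 and 6591 TPM with next-gen ATPS, against 7562 and 5164 TPM with UC, and the groups overlapped. The hairpin entry hsa-mir-27a also overlapped, with a log2 difference of 1.27 ± 0.82 (SE). In PC3 EVs its difference was 2.48, and neither passed the limma test. Over the 13 tested entries of the miR-23, miR-27 and miR-24 clusters, 1 was called higher and 0 lower, and the median log2 difference was 0.05 beside 0.01 over all 196 species. Under edgeR's scaling the median over all species was −0.21, and every miRNA median given here is on the deposited scale.

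The second species called was hsa-miR-663b. It had 12373 and 21009 TPM with next-gen ATPS, against 2062 and 2956 TPM with UC. The groups were far apart, and this species was among the 8 most abundant of next-gen ATPS EVs but not of UC EVs. The log2 difference was 2.66 ± 0.42 (SE, limma adjusted p = 0.00098), and with donor cell libraries added to the fit the adjusted p was 0.055. Its hairpin entry, hsa-mir-663b, had 1735 and 2678 TPM with next-gen ATPS, against 324 and 112 TPM with UC. The hairpin entry did not pass the limma test (adjusted p = 0.19). It was called by edgeR (adjusted p = 0.022) and by DESeq2 (adjusted p = 0.012). The gene lies 770 bases from a pseudogene of 18S rRNA on the reference genome.

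hsa-miR-663b is identical over its 22 bases to a stretch of the transcribed spacer of the 45S rRNA precursor gene RNA45SN2, on the sense strand. The 99 tested mature miRNAs with a RefSeq sequence were compared with both strands of that gene, and 3 of them matched with at most 1 mismatch, while the median was 8 mismatches. The other 2 were hsa-miR-4488, an exact match to 28S rRNA over 18 bases, and hsa-miR-7704, which had 1 mismatch to it. A match says that reads of either origin look alike, not where a read came from. hsa-miR-4488 had 4278 and 3296 TPM with next-gen ATPS, against 1051 and 786 TPM with UC, which did not overlap but did not pass the test (log2 difference 1.93, adjusted p = 0.29). hsa-miR-7704 had 0 and 412 TPM with next-gen ATPS, against 162 and 225 TPM with UC, and its groups overlapped.

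Of 18 entries listed as resembling rRNA 11 were tested, and the only one limma called was hsa-miR-663b. Besides it, edgeR and DESeq2 both called hsa-mir-663b, hsa-mir-3648-1 and hsa-mir-3648-2. For each hsa-mir-3648 entry the adjusted p was 0.012 by edgeR and 0.0074 by DESeq2. The pairs hsa-mir-3648-1 with hsa-mir-3648-2 and hsa-mir-3687-1 with hsa-mir-3687-2 had identical values, so the list holds 9 distinct profiles. Of these 7 were higher without overlap between the groups, where 23.5% of all tested species were, and 2, hsa-mir-7641-1 and hsa-miR-7641, overlapped. The list was not drawn from the sequence search, so these are not 7 checked copies of rRNA. It leaves out hsa-miR-4488 and hsa-miR-7704, and no match is given here for its hsa-mir-3687 or hsa-mir-7641 entries. Some of the 7 rested on few reads. hsa-mir-663a had 2 and 1 reads with next-gen ATPS, against 1 and 1 with UC, and hsa-miR-3687 had 2 and 3, against 5 and 0. The median log2 difference was 1.49 over the distinct profiles (2.34 over all 11 entries) beside 0.01 over all species, and in PC3 EVs it was −0.02. hsa-mir-3648-1 lies inside RNA45SN2. The hsa-mir-3648 entries each had 463 and 3296 TPM with next-gen ATPS, against 162 and 150 TPM with UC. The reads behind them were 4 and 16 with next-gen ATPS, against 4 and 4 with UC. Leaving out hsa-mir-7641-2, the list held 2.15% and 3.42% of miRNA reads with next-gen ATPS, against 0.534% and 0.415% with UC. hsa-mir-7641-2 itself, whose sequence was not checked here, was the most abundant entry in all 4 libraries, at 44.5% and 37.7% of the class with next-gen ATPS, against 35.6% and 32.95% with UC. Its log2 difference was 0.26 ± 0.19 (SE, limma adjusted p = 0.71) and −0.06 by edgeR.

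**Figure D2:**
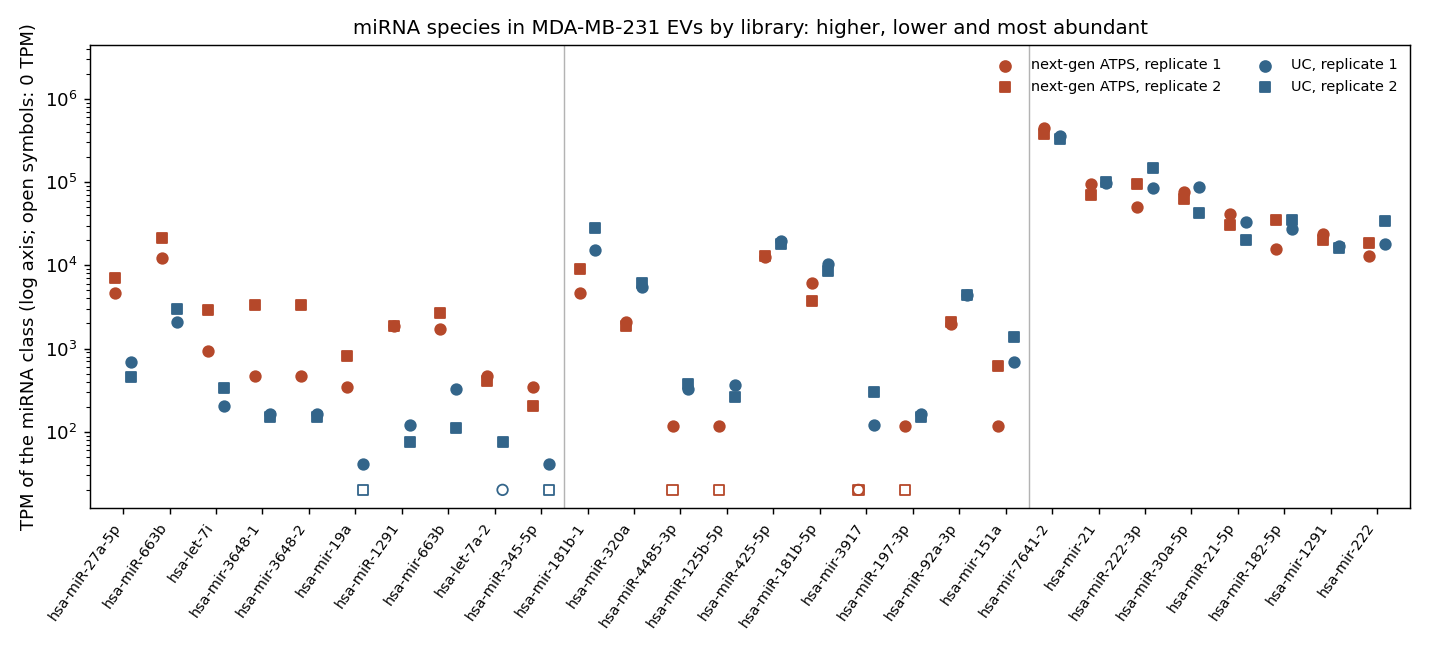
TPM (log axis) of named miRNA entries in each of the 4 MDA-MB-231 EV libraries, next-gen ATPS left of UC, circles for replicate 1, squares for replicate 2 and open symbols for 0 TPM. From left to right stand entries whose next-gen ATPS libraries were both higher, entries where both were lower, and the most abundant ones. Only hsa-miR-27a-5p and hsa-miR-663b passed the limma test.

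Among the next entries by p, none passed the test. hsa-miR-1291, whose hairpin gene MIR1291 overlaps the snoRNA gene SNORA2C, had 1850.1 and 1854 TPM with next-gen ATPS (16 and 9 reads), against 121 and 74.8 TPM with UC (3 and 2 reads). The log2 difference of 3.31 ± 1.07 (SE) was the largest of the class, with an adjusted p of 0.19 by limma and 0.0045 by edgeR. The better covered hairpin entry of the same gene, hsa-mir-1291, had 205 and 97 reads with next-gen ATPS, against 420 and 433 with UC. Its log2 difference was only 0.39 ± 0.32 (SE, limma adjusted p = 0.78). The hairpin entry of let-7i, a member of the tumour-suppressive let-7 family, had 925 and 2884 TPM with next-gen ATPS, against 202 and 337 TPM with UC. Its mature form, hsa-let-7i-5p, lay closer, at 2081 and 2472 TPM with next-gen ATPS, against 1456 and 1908 TPM with UC. Of 13 tested let-7 and miR-98 entries, 0 were called, 7 were higher and 1 was lower without overlap, beside 23.5% higher and 19.4% lower over all tested species, and the median log2 difference was 0.66.

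Species with lower values after next-gen ATPS had smaller differences, and 0 were called by limma. The hairpin entry hsa-mir-181b-1 had 4625 and 9063 TPM with next-gen ATPS, against 15164 and 27913 TPM with UC. The log2 difference was −1.65 ± 0.54 (SE), with an adjusted p of 0.19 by limma and 0.0011 by edgeR. The mature hsa-miR-181b-5p lay at 6129 and 3708 TPM with next-gen ATPS, against 10514 and 8494 TPM with UC. hsa-miR-320a, which is processed without the usual hairpin cleavage by Drosha, had 2081 and 1854 TPM with next-gen ATPS, against 5540 and 6211 TPM with UC, and its adjusted p was 0.26 by limma and 0.034 by edgeR. hsa-miR-92a-3p of the oncogenic miR-17-92 cluster had 1966 and 2060 TPM with next-gen ATPS, against 4408 and 4453 TPM with UC. hsa-miR-425-5p had 12720 and 12976 TPM with next-gen ATPS, against 19410 and 18222 TPM with UC, which is a small but well separated difference of −0.55 ± 0.27 (SE, limma adjusted p = 0.47). Without overlap, 38 species were lower (19.4% of those tested). hsa-mir-3917, at 0 and 0 TPM with next-gen ATPS, against 121 and 299 TPM with UC, was below what 3 reads would give in either next-gen ATPS library, so no fold is given.

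The most abundant species were largely the same. Both groups had hsa-mir-7641-2, hsa-mir-21, hsa-miR-222-3p, hsa-miR-30a-5p, hsa-miR-21-5p and hsa-miR-182-5p among their top 8 by mean TPM. hsa-miR-222-3p, an oncogenic miRNA of basal-like breast cancer, had 50069 and 95160 TPM with next-gen ATPS, against 84998 and 146340 TPM with UC. hsa-miR-21-5p, an oncogenic miRNA raised in many tumours, had 41050 and 30484 TPM with next-gen ATPS, against 33239 and 20392 TPM with UC. hsa-miR-30a-5p had 77128 and 61998 TPM with next-gen ATPS, against 88354 and 42131 TPM with UC. Groups of all 3 overlapped. hsa-miR-100-5p, another marker of the line, lay at 10870 and 10093 TPM with next-gen ATPS, against 13385 and 14144 TPM with UC, with an adjusted p of 0.88 by limma.

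The next 7 lists are read against the same shares over all tested species, 23.5% higher and 19.4% lower without overlap, and limma called 0 species in each. Of 5 tested entries of the miR-221 and miR-222 cluster, 0 were higher and 1 lower without overlap (median −0.45). Of 9 in the miR-30 family, 2 were higher and 2 lower (median −0.13). Of 9 related to miR-100 (miR-99, miR-100, miR-125), 1 was higher and 3 were lower (median −0.39). Of 13 in miR-17-92 and its related clusters, 3 were higher and 3 lower (median 0.39). The miR-320 family had 2 tested entries, both lower (median −1.17). Of 4 entries of miR-182 and its cluster partners, 1 was higher and 1 lower, and of 3 entries of miR-425 and miR-191, 2 were lower. Of 82 tested hairpin names 28 were higher and 9 lower without overlap (median 0.28). The filter on mean TPM can raise the number of higher ones. Of 114 mature names, which include both species called, 18 were higher and 29 lower (median −0.16), and the difference between both kinds of name was not tested. Hairpin names took 63.8% and 56.2% of miRNA reads with next-gen ATPS, against 55.4% and 55.4% with UC, and how reads were divided between hairpin and mature names is not given in the sources used here. Across the 99 mature species with a sequence, which share libraries and depth, GC content and the log2 difference had a Spearman coefficient of −0.29.

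A larger share of species was seen with both methods in snoRNA than in miRNA, but the snoRNA class also held more reads. The part of depth in this was not tested. Next-gen ATPS EVs held 308 and 270 snoRNA species, against 327 and 307 in UC EVs, and the groups overlapped. The difference of −28 species had an exact two-sided permutation p of 0.667. At 60912 reads in every library the expected numbers were 282 and 270 with next-gen ATPS, against 280.3 and 283 with UC. Of 318 species seen with next-gen ATPS 307 were also seen with UC, which is 96.5% of the next-gen ATPS species and 90% of the 341 UC species. The most read snoRNA seen only with UC, SNORA77, had 17 reads.

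The snoRNAs shown next are the 2 most abundant, then C/D and H/ACA box species with the differences described next. SNORA66 is shown for its difference between the lines. They are GENCODE transcripts on hg38, 5′ to 3′. In C/D box species the capitals mark TGATGA, the C box, where it was found, and the last CTGA, the D box. In H/ACA box species they mark ACA before the last 3 bases.
SNORD2: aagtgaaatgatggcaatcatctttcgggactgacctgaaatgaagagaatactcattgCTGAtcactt
SNORD49A: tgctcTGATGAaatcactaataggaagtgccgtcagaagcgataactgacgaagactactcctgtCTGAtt
SNORD104: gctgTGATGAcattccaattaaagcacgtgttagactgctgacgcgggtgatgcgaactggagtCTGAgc
SNORD67: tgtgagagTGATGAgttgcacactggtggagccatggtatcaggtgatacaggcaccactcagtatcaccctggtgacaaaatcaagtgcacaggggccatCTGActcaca
SNORA58: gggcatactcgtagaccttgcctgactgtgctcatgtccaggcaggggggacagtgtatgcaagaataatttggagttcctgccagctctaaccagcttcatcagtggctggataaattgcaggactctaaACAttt
SNORA66: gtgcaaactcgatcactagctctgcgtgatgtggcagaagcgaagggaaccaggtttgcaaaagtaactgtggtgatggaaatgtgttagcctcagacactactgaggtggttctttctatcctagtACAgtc
TGATGA, searched on the sense strand, was present in 75.3% of 295 GENCODE C/D genes and CTGA in 96.9% of them, and ACA stood at that place in 73% of 152 H/ACA genes. SNORD2 is at chr3:186784796-186784864 within EIF4A2, SNORD49A at chr17:16440036-16440106 within SNHG29 and SNORD104 at chr17:64146083-64146152 in an intron of SNHG25, all on the plus strand. SNORA66 is at chr1:92840719-92840851 on the plus strand in an intron of RPL5. SNORD67, at chr11:46762389-46762499, and SNORA58, at chr3:131479097-131479233, are on the minus strand in introns of CKAP5 and MRPL3.

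Of 287 snoRNA species tested on log2(TPM + 10), limma called 0 higher (0%) and 0 lower (0%). At an unadjusted p under 0.05 there were 21 higher and 26 lower, edgeR called 0 and DESeq2 called 3 higher. Without UC replicate 2, limma called 7 higher and 2 lower. Groups did not overlap for 37 species that were higher (12.9%) and for 93 that were lower (32.4%). The smallest adjusted p was 0.12, so the species that follow are given as values that did not pass the test.

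SNORD2 and SNORD49A led the class under both methods. SNORD2 had 221340 and 163940 TPM with next-gen ATPS, against 258810 and 138200 TPM with UC. SNORD49A had 141590 and 197960 TPM with next-gen ATPS, against 107090 and 224760 TPM with UC. In both cases the UC values enclosed the next-gen ATPS values, and the log2 differences were 0.01 ± 0.24 and 0.11 ± 0.28 (SE). SNORD26 and SNORD30, both hosted by SNHG1, also overlapped. SNORD26 had 70438 and 52469 TPM with next-gen ATPS, against 85828 and 62912 TPM with UC. The 8 most abundant snoRNA species of a library took 61.6% and 59.5% of its class with next-gen ATPS, against 66.2% and 59.4% with UC.

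Among species with higher values, SNORA58, an H/ACA box snoRNA, came first. It had 6307 and 2643 TPM with next-gen ATPS, against 1296 and 603 TPM with UC, with no overlap. The log2 difference was 2.19 ± 0.59 (SE, limma adjusted p = 0.12), and the adjusted p was 0.0018 by DESeq2. SNORD3D, a copy of U3 that takes part in early cleavage of the rRNA precursor, had 4601 and 3431 TPM with next-gen ATPS, against 1468 and 1720 TPM with UC. Its log2 difference was 1.32 ± 0.39 (SE, limma adjusted p = 0.12). All 9 tested U3 entries, the entry named U3 included, had positive differences, between 0.38 and 1.32, and 8 were higher without overlap (12.9% over all snoRNAs), but near-identical copies can share reads and are not separate observations. SNORD104 had 6115 and 12247 TPM with next-gen ATPS, against 2220 and 6104 TPM with UC, where the lowest next-gen ATPS value barely cleared the highest UC value.

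Species with lower values were more numerous. SNORD67, a guide to U6 spliceosomal RNA, had 152 and 148 TPM with next-gen ATPS, against 492 and 626 TPM with UC. SNORD62A and SNORD62B, 2 copies within PRRC2B with identical values, each had 284 and 213 TPM with next-gen ATPS, against 917 and 591 TPM with UC. SNORA3B, in an intron of the ribosomal protein gene RPL27A, had 364 and 213 TPM with next-gen ATPS, against 559 and 1489 TPM with UC.

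**Figure D3:**
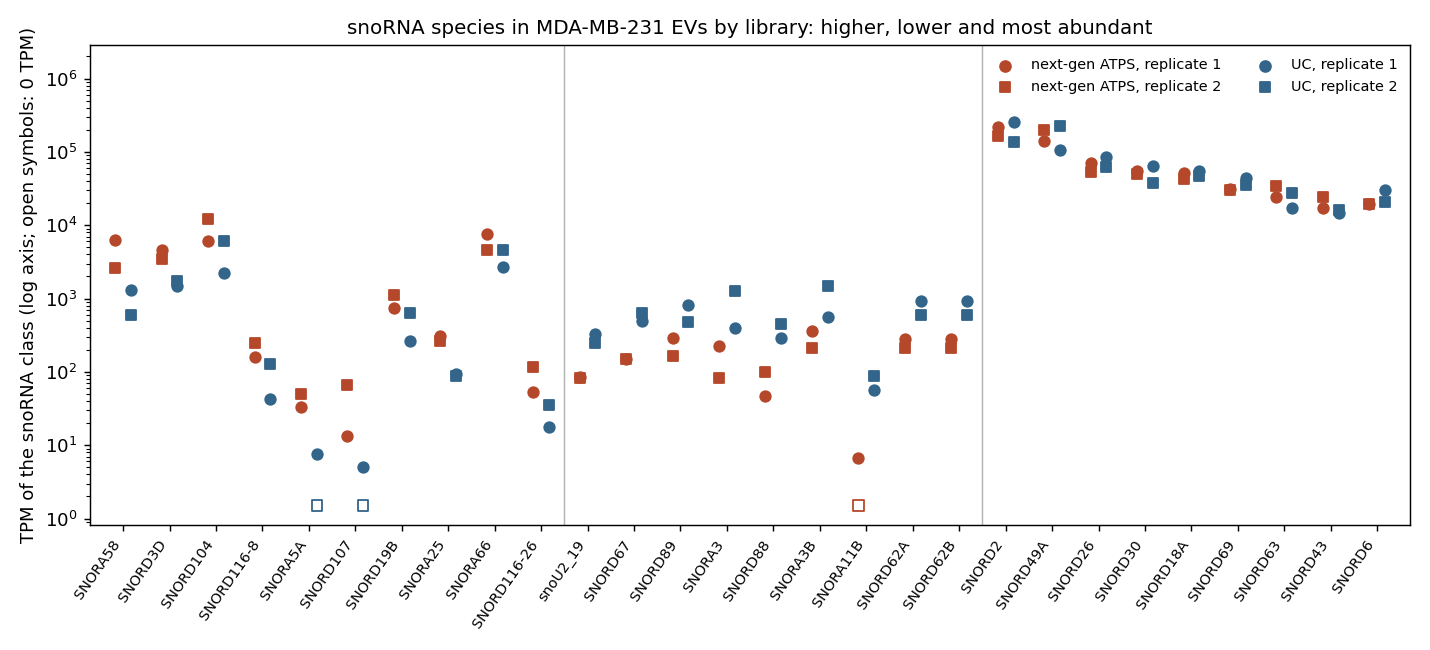
TPM (log axis) of named snoRNA species in each of the 4 MDA-MB-231 EV libraries, drawn as for miRNA: next-gen ATPS left of UC, circles for replicate 1, squares for replicate 2, open symbols for 0 TPM. Species higher, species lower and the most abundant species stand from left to right, and 0 of them passed the limma test.

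Over all 287 snoRNAs 12.9% were higher and 32.4% lower without overlap, which is the background for the counts that follow. By class, 24 of 172 tested C/D box species were higher and 50 lower without overlap, with a median log2 difference of 0.09. Of 105 H/ACA box species 12 were higher and 37 lower, with a median of −0.51, beside −0.10 over all 287 species. With each library centred on its median species these medians were 0.36, −0.24 and 0.17. H/ACA box species took 5.55% and 3.46% of snoRNA reads with next-gen ATPS, against 4.31% and 4.73% with UC, so the whole class overlapped. All 3 tested scaRNAs, which guide modification of spliceosomal RNAs in Cajal bodies, were lower without overlap (median −1.73). SCARNA10, for one, had 139 and 49.3 TPM with next-gen ATPS, against 377 and 242 TPM with UC. Of 18 snoRNAs of rRNA precursor cleavage 9 were higher and 4 lower (median 0.43). Of the 4 snoRNAs of RPL13A introns 3 were lower (median −0.72), and of 6 hosted by SNHG1 1 was higher (median 0.14). Both tested GAS5-hosted species had positive differences, and 1 did not overlap.

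SNORD116, an imprinted cluster on chromosome 15 best known from Prader-Willi syndrome, had differences of mostly 1 sign in each line. Of its 21 tested copies 20 had positive differences in MDA-MB-231 EVs (median 1.09), 3 were higher without overlap, a share near the 12.9% over all snoRNAs, and 0 were called. Over all snoRNAs 135 of 287 differences were positive. The list used for sums covers SNORD115 and SNORD116, with 27 entries detected and 21 tested. It summed to 0.501% and 0.931% of the class with next-gen ATPS, against 0.181% and 0.539% with UC, which overlapped. The copies rest on shared reads, since several had identical values. In PC3 EVs all 21 copies had negative differences (median −1.09). There the list summed to 1.74% and 1.94% after next-gen ATPS, against 4.43% and 3.48% after UC.

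**Figure D4:**
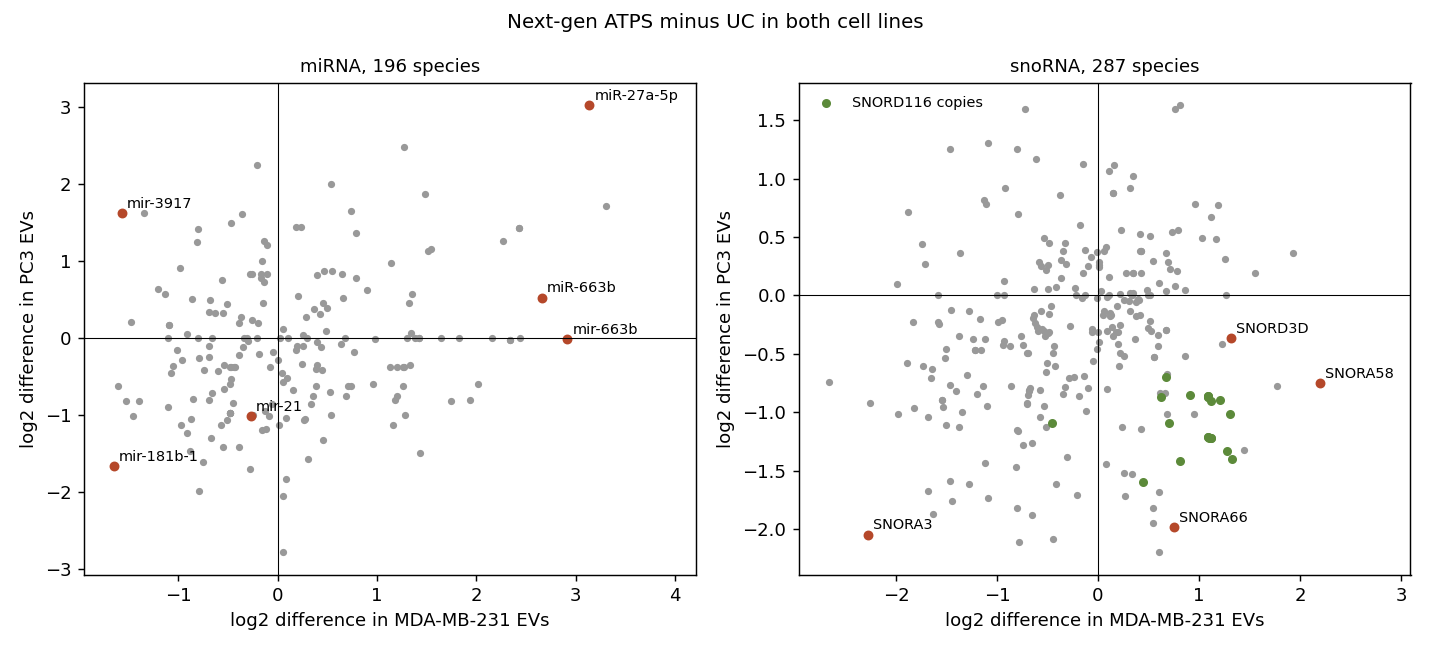
Log2 differences of next-gen ATPS minus UC in MDA-MB-231 EVs (horizontal axis) and in PC3 EVs (vertical axis) for 196 miRNA and 287 snoRNA species, 1 point per species. hsa-miR-27a-5p stands at the upper right of the miRNA panel, at 3.14 and 3.02, and 20 of 21 SNORD116 copies (green) lie at the lower right of the snoRNA panel.

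The difference between the methods was compared between the 2 lines in the same limma model. For miRNA 0 of 196 species differed (0%), with 11 at an unadjusted p under 0.05 and 0 by edgeR or DESeq2. hsa-miR-27a-5p had 26656 and 24935 TPM in PC3 EVs with next-gen ATPS, against 2874 and 3307 TPM with UC, a log2 difference of 3.02 ± 0.36 (SE, limma adjusted p = 6.9e-05). The difference between lines was 0.12 ± 0.51 (SE). PC3 EVs had 2 miRNA species called (1.02%), and the other was the hairpin entry hsa-mir-21, at −1.02 ± 0.23 (SE, limma adjusted p = 0.043), where MDA-MB-231 EVs gave −0.27 ± 0.23 (SE). hsa-miR-663b gave 0.52 in PC3 EVs, and its difference between lines of 2.14 did not pass the test (limma adjusted p = 0.45). hsa-mir-181b-1 gave −1.66 in PC3 EVs and −1.65 in MDA-MB-231 EVs.

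For snoRNA 1 of 287 species differed between the lines (0.348%), with 30 at an unadjusted p under 0.05, and DESeq2 called 7. Without MDA-MB-231 UC replicate 2 limma called 14, and without next-gen ATPS replicate 1 it called 0. SNORA66 had 7477 and 4646 TPM in MDA-MB-231 EVs with next-gen ATPS, against 2705 and 4533 TPM with UC. In PC3 EVs it had 883 and 1012 TPM with next-gen ATPS, against 3874 and 3662 TPM with UC. The method thus went with higher values in one line and lower values in the other, although the MDA-MB-231 groups lay almost side by side. The log2 difference was 0.75 ± 0.36 in MDA-MB-231 and −1.98 ± 0.36 in PC3 (SE), and SNORA66 was the only snoRNA called in PC3 (0.348%). The difference between lines was 2.73 ± 0.51 (SE, limma adjusted p = 0.0075). Leaving out next-gen ATPS replicate 1 of MDA-MB-231 gave 2.39 (adjusted p = 0.062 by limma), and the call was also lost without either PC3 UC library, at adjusted p of 0.077 and 0.055.

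In circRNA, most tested entries were lower after next-gen ATPS on the deposited shares, and more of the class was undetected. Next-gen ATPS EVs held 55707 and 46789 entries above 0 TPM, against 74023 and 74908 in UC EVs, although their class sums were the larger ones. The difference of −23218 entries was well beyond the pooled spread of 4481, with an exact two-sided permutation p of 0.33. At equal class sums the expected numbers were 44202 and 37648 with next-gen ATPS, against 73637 and 74908 with UC. Of 69930 entries seen with next-gen ATPS 61216 were also seen with UC, which is 87.5% of these entries and 66.7% of the 91827 entries seen with UC. The files do not pair circRNA entries with genes, so entries are named by ID only.

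A group of 8 entries between hsa_circ_0040314 and hsa_circ_0040328 held 90.7% and 90.4% of the class with next-gen ATPS, against 90.5% and 88.3% with UC. Their values were near-identical within each library, with 6 distinct profiles, as for entries that hold the same reads. Each took about the same level, for example 113400 and 112950 TPM for hsa_circ_0040314 with next-gen ATPS, against 113090 and 110370 TPM with UC. After the 28 most abundant entries, all others together held 24406 and 18066 TPM with next-gen ATPS, against 39214 and 31343 TPM with UC.

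Of 920 circRNA entries tested on log2(TPM + 1), limma called 9 higher (0.978%) and 558 lower (60.7%). Without UC replicate 2 it called 60 higher and 565 lower. Groups did not overlap for 34 higher (3.7%) and 603 lower entries (65.5%). The direction of this majority depends on the scaling. The median log2 difference was −1.12 on the deposited shares, and with each library centred on its median entry it was −0.19, with 192 called higher and 267 lower. edgeR with TMM scaling called 219 higher (23.8%) and 160 lower (17.4%), and DESeq2 called 264 higher and 235 lower. The 920 entries had 801 distinct profiles, and keeping 1 entry for each gave 8 higher and 484 lower.

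**Figure D5:**
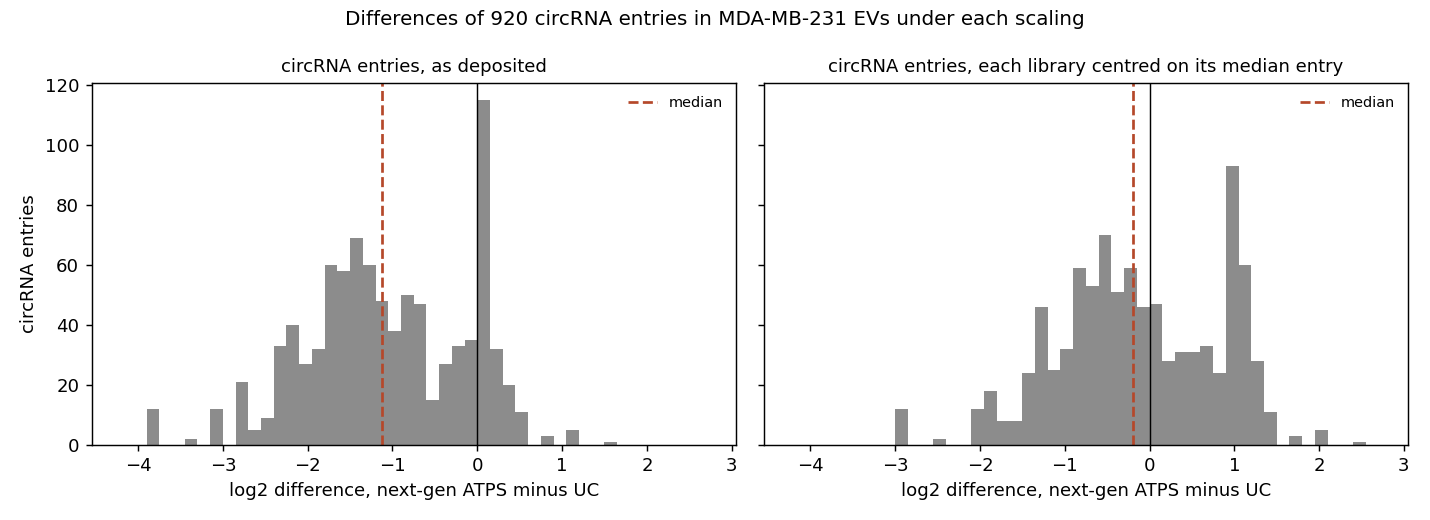
Number of circRNA entries (vertical axis) by log2 difference of next-gen ATPS minus UC (horizontal axis) in MDA-MB-231 EVs, on the deposited shares at left and with each library centred on its median entry at right. The dashed line is the median, −1.12 at left and −0.19 at right, and the narrow peak near 0 at left stands near 1 at right.

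The entries with the largest differences kept their direction under the scalings run. hsa_circ_0084803 had 5.07 and 3.1 TPM with next-gen ATPS, against 0.848 and 0.593 TPM with UC, and its log2 difference was 1.54 ± 0.32 (SE, limma adjusted p = 0.0031) as deposited and 2.47 when centred. hsa_circ_0052658 had 68.3 and 39.9 TPM with next-gen ATPS, against 24.6 and 22.5 TPM with UC. Its difference of 1.12 ± 0.40 (SE) passed the limma test at an adjusted p of 0.036 and lost the call without next-gen ATPS replicate 1, UC replicate 1 or UC replicate 2 (adjusted p of 0.185, 0.067 and 0.086). hsa_circ_0091356 had 7.2 and 6.81 TPM with next-gen ATPS, against 74.1 and 172 TPM with UC. Its log2 difference was −3.83 ± 0.40 (SE, limma adjusted p = 0.00012) as deposited and −2.90 when centred. hsa_circ_0022045 had 7.04 and 6.68 TPM with next-gen ATPS, against 71.4 and 168 TPM with UC, and whether it shares reads with the entry before it was not tested.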

How the data were processed

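The authors sequenced single-end NEBNext small RNA libraries, trimmed at Q20 over 4 bases, kept reads of 18 to 35 bases, aligned with STAR to hg38 and annotated with COMPSRA; no version is given in the sources used here. The deposited values are named TPM but are CPM within 1 RNA class, without a length term. Whole reads were recovered, with 100% of values under 200 reads whole within 0.1 read. limma (3.58.1, R 4.3.3; trend, robust) was fitted to log2(TPM + 100), + 10 or + 1 for miRNA, snoRNA or circRNA, over species with a mean of at least that value in the 4 libraries, with 1 mean for each of 6 groups of 12 EV libraries and Benjamini-Hochberg adjustment within a class. edgeR (4.0.16) and DESeq2 (1.42.0) used recovered reads. The fit was tested on simulated data, where it recovered planted miRNA changes only at the largest size, and not all of those. Some planted snoRNA and circRNA changes were recovered at every size. Named species were those with non-overlapping groups, up to 10 (circRNA 5) in each direction by size if called and otherwise by p, with the 8 most abundant, list members and 5 smallest p between lines; at most 2 circRNA IDs are printed in each direction. Members and lists were chosen with earlier results of these data known, and the list of rRNA precursor cleavage was corrected after values were seen. Coordinates come from GENCODE v44 and RefSeq. Of 287 tested snoRNAs 275 had a GENCODE gene. One result is not reported here. Floors of a count of 0 cover counting error only, while ± values are SEs of the limma fit or SDs of 2 libraries.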

Additional observations from a re-analysis of the deposited data

Results flagged for a closer look

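SNORA66 had log2 differences of opposite sign in the 2 lines, of which only that in PC3 passed the test. Its next-gen ATPS minus UC difference was higher in MDA-MB-231 than in PC3 by 2.73 on the log2 scale, and a test of that difference in the limma model passed at an adjusted p of 0.0075. The value lay between 2.36 and 3.10 when a library of either compared method was left out, and 3 of these fits lost the call. Groups of 2 libraries are too small to test a single library against the rest.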

How the results depend on the processing

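Species called in miRNA numbered 2, and 8 by edgeR or DESeq2, 9 with only the 4 libraries, 1 with all 16 libraries and 1 without the rRNA-like entries (chosen after seeing the data), with 2 to 6 when each library was left out. In snoRNA 0 became 3 by DESeq2, 3 with only the 4 libraries and 0 to 9 when each library was left out. The difference between lines in snoRNA ranged from 0 to 14 species and in miRNA stayed at 0. For circRNA species called, 567 became 15358 with no filter on low values, since 95934 entries were tested, 2188 without the 8 most abundant entries, and 423 to 625 with libraries left out. The difference in species detected was −117 for miRNA, −77 at 3 reads, 20.1 at equal reads and 29.1 at equal reads outside hsa-mir-7641-2, and −131 to −103 with libraries left out. It was −28 for snoRNA, −5.48 at equal reads and −47 to −9 with libraries left out. It was −23218 for circRNA, −33348 at equal reads, −30836 at equal reads outside the 8 most abundant entries and −27676 to −18758 with libraries left out. The share of next-gen ATPS species also in UC ranged from 73.0% to 91.2% for miRNA, 91.2% to 98.9% for snoRNA and 76.0% to 90.5% for circRNA with libraries left out, and the circRNA share of ATPS species also in VC (the UC label) was 81.9% counting entries above 0 TPM in both libraries. Both depth alternatives that name entries were chosen after seeing the data. Beyond depth and the number of entries tested, the cause was not tested.

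Same-numbered libraries deviated from their group means together with r = 0.11 for miRNA, 0.49 for snoRNA and 0.73 for circRNA. With 2 libraries in a group the second pair mirrors the first. This is thus 1 comparison, which is too little to pair the libraries. With the replicate number as a block, snoRNA gave 24 calls (13 higher, 11 lower), 18 for the difference between lines, and circRNA 639, while miRNA kept 2. Of 1038 refitted differences of 50 named species 961 gave the same call, 37 lost it, 40 gained it and 0 turned direction.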

Other observations

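For miRNA the likeness of the 2 next-gen ATPS libraries lay within the range between the methods, above all but the highest of those pairs. These were also the shallower libraries, and the part of depth was not tested. Over the 196 tested species, which share depth and scaling, the Spearman coefficient was 0.71 between the 2 next-gen ATPS libraries and 0.66 to 0.72 between a next-gen ATPS and a UC library, with 0.80 between the 2 UC libraries. In circRNA, over 920 entries, it was 0.93 within next-gen ATPS, 0.56 to 0.78 between the methods and 0.83 within UC.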
